A study of Mus musculus with 25 samples.

Results

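The 8 genes described here encode secreted or membrane-bound signals of the immune system: the chemokines *Ccl5*, *Cxcl10*, *Xcl1*, *Ccl3* and *Ccl4*, and the TNF-family ligands *Tnf*, *Lta* and *Ltb*. They were taken by symbol from a table of 48795 genes in which 27571 were above 0 in some library, and the members were chosen by values from these same libraries: *Ccl5* and *Cxcl10* from the uninjected mice, *Xcl1* from 24 hr, and *Cxcl10* again from its change between 0 and 24 hr. Those values are therefore given as a description without a test. All 8 were found, and all 8 were among the 14141 genes tested, those with a mean normalized count of at least 10. RNA sequencing was done on sorted Thy1.2+ CD44- thymocytes, which hold the DN3 and DN4 stages, from *Rag1*-deficient mice of 7 to 8 weeks on a C57BL/6J background, each carrying the CD2-Cre transgene. Control mice were *Wnk1* fl/+ (HET in the sample names) and lose 1 *Wnk1* allele where Cre acts, while WNK1-deficient mice were *Wnk1* fl/fl (KO) and lose both. Thymi of uninjected mice gave the 0 hr groups, and the others were harvested 3, 24 or 48 hr after a dose of 150 µg anti-CD3ε, an antibody that signals in place of the pre-TCR which these mice cannot make. There were 3 mice in each of the 8 groups, except 4 WNK1-deficient mice at 0 hr, and 1 library per mouse, all from a single experiment.

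CD2-Cre is driven by the human CD2 promoter and acts in lymphoid cells, so that the deletion is not limited to thymocytes. *Wnk1* stood between 5407 and 20719 normalized counts in control and between 3037 and 9046 in WNK1-deficient libraries and was lower in the mean at each time, although the deletion removes 1 exon and transcripts without it are still counted. Recovered depth was 22.5 to 57.3 M reads per library (median 36.6 M). The pan-T-cell and thymocyte transcripts *Thy1*, *Cd3e*, *Lck* and *Il2ra* were in every library, though several were lower without WNK1, as given with the other markers, and the B cell transcripts *Ms4a1* and *Pax5* were at or near 0. At 0 hr every control library carried lane 1 and every WNK1-deficient library lane 2 in its sample name, so that at this time genotype and lane cannot be told apart. Mice at 0 and 48 hr were female by *Xist* (10918 to 45584) and those at 3 and 24 hr male (*Xist* 0 to 13.8, *Ddx3y* 988 to 2697), so that sex and the early injection times cannot be told apart, whereas the genotypes at each time share a sex. The libraries named replicate 3 in control at 3 hr, in control at 24 hr and without WNK1 at 48 hr stand apart from their groups, and each was on another lane than the other libraries of its group.

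Chemokines are small secreted proteins that draw leukocytes along a gradient by binding receptors coupled to G proteins. CXCL10 binds CXCR3, and XCL1 binds XCR1, which marks cross-presenting dendritic cells. TNF and the homotrimer of lymphotoxin α (*Lta*) signal through the TNF receptors, whereas lymphotoxin β (*Ltb*) anchors lymphotoxin α at the cell surface in a complex that binds the lymphotoxin β receptor and shapes lymphoid organs and the thymic medulla. In mature T cells *Ccl3*, *Ccl4*, *Xcl1* and *Tnf* are early products of antigen receptor signals, *Ccl5* is a late one, and *Cxcl10* is a transcript typical of interferon and NF-κB signals. *Ccl5*, *Ccl3*, *Ccl4* and *Xcl1* are also well-known products of NK cells.

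The genes lie in 2 clusters and 2 single positions of the mouse genome (RefSeq, GRCm38.p6). *Ccl5* (chromosome 11, 83525778 to 83530518), *Ccl3* (83647843 to 83649378) and *Ccl4* (83648624 to 83664683 in a RefSeq model that overlaps *Ccl3*) lie within 139 kb of chromosome 11, and *Ltb* (chromosome 17, 35194507 to 35196305), *Tnf* (35199367 to 35202007) and *Lta* (35203165 to 35205578) within 11.1 kb of chromosome 17. *Cxcl10* is on chromosome 5 (92346638 to 92348889) and *Xcl1* on chromosome 1 (164931644 to 164935522). RefSeq promoters of 6 of the 8 genes, from 250 bases before to 50 after the start site, were searched on both strands for the κB consensus, the interferon-stimulated response element (GAAANNGAA), the AP-1 site (TGANTCA, which reads alike on both strands) and the cAMP response element (TGACGTCA). *Cxcl10* held 4 matches, *Ccl3* and *Ltb* 1 each, and *Xcl1*, *Tnf* and *Lta* none. The 250 bases before the start site are shown for the 3 genes with a match with the matches in capitals, so that the spacing and number of the matches can be seen beside the values that follow.
Cxcl10, chr5:92348890-92349139, minus strand: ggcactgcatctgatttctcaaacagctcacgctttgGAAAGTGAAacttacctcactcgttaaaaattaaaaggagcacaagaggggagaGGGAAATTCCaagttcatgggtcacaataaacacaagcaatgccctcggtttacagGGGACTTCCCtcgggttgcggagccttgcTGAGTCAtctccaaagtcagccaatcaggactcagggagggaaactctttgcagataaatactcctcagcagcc
Ccl3, chr11:83649379-83649628, minus strand: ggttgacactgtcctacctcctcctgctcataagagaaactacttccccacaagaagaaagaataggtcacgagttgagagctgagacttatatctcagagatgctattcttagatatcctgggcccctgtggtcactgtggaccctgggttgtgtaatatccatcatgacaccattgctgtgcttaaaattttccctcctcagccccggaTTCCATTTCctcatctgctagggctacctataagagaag
Ltb, chr17:35194257-35194506, plus strand: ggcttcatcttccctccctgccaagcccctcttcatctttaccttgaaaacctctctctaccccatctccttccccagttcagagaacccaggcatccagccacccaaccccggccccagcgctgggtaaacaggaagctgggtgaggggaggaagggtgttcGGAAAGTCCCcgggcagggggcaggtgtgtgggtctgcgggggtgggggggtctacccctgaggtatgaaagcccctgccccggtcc
In *Cxcl10* the capitals mark, from 5′ to 3′, the interferon element at -213, κB matches at -159 and -103 and the AP-1 site at -74, counted from the start site to the first base of the match. In *Ccl3* they mark an interferon element on the other strand at -39, and in *Ltb* a κB match on the other strand at -87. Of all 32851 mouse promoters in the table, 4.51% held a κB match, 8.56% the interferon element, 7.81% the AP-1 site and 1.79% the cAMP response element at least once. A match is a run of letters and not a measured binding site.

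**Figure D1:**
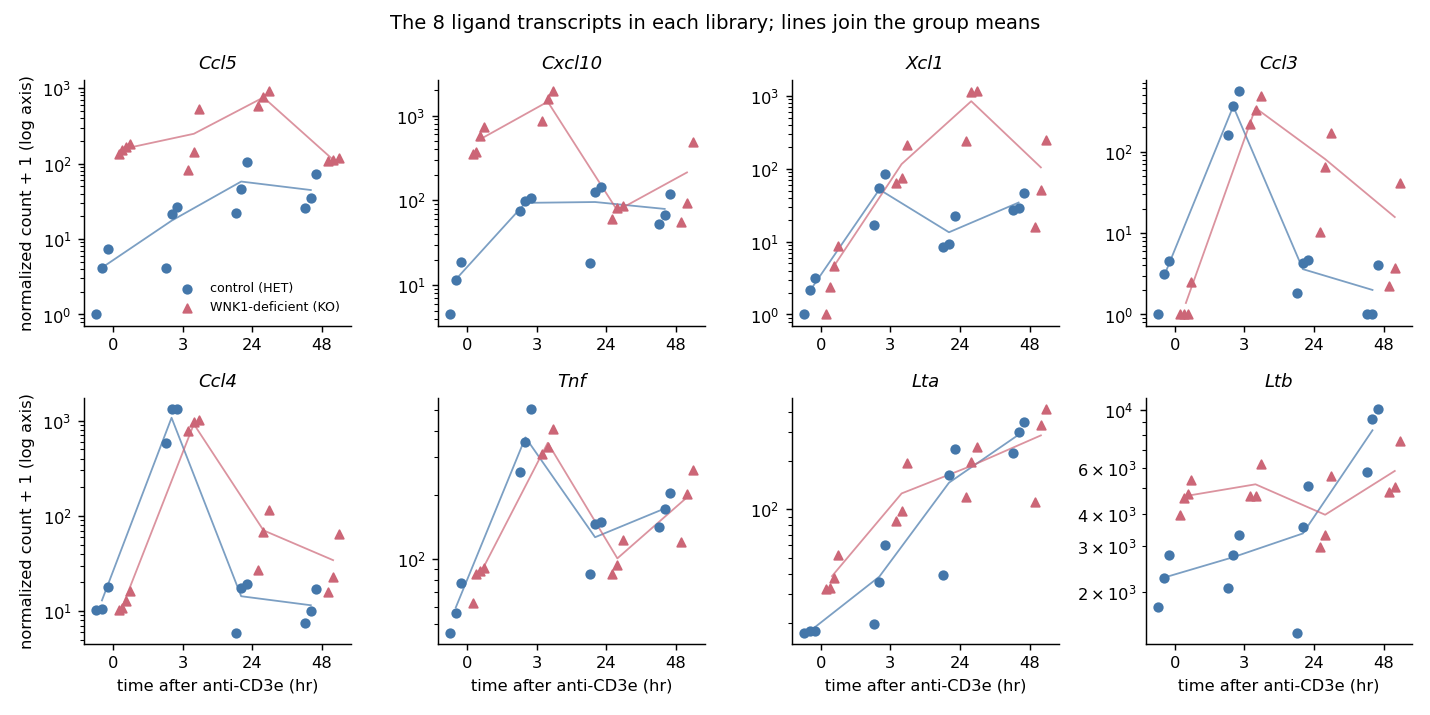
Normalized count + 1 (log axis) of each of the 8 transcripts in each of the 25 libraries against hours after anti-CD3ε, with circles for control, triangles for WNK1-deficient thymocytes and lines through the group means. *Ccl5* and *Cxcl10* lie apart by genotype at 0 and 3 hr, *Xcl1*, *Ccl3* and *Ccl4* at 24 hr, and *Ccl3*, *Ccl4* and *Tnf* peak at 3 hr in both genotypes.

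*Cxcl10* and *Ccl5* were almost silent in uninjected control thymocytes and present in uninjected WNK1-deficient ones. The normalized counts of *Cxcl10* (a deposited read count divided by a size factor for its library) at 0 hr were 3.52, 10.6 and 18 in control and 578, 347, 369 and 739 in WNK1-deficient mice. Those of *Ccl5* were 0, 6.33 and 3.17 in control and 179.8, 132, 151 and 162 in WNK1-deficient mice. No library of one genotype reached those of the other for either gene, and the means were 47.6 and 49.3 times higher without WNK1, for *Ccl5* over a control level of 9 reads in all 3 libraries together. In bulk RNA of a sorted population, more cells of a type and more RNA per cell cannot be told apart. These 0 hr differences chose the genes, and with lane as a covariate in the fit across all groups they were 4.86 (*Cxcl10*) and 6.93 (*Ccl5*) on the log2(normalized count + 1) scale, beside 5.60 and 5.64 without it.

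Neither gene was chosen from its values 3 hr after injection, though the members were chosen with earlier results of these data known. Both were higher at 3 hr without WNK1. *Cxcl10* stood at 96.2, 107 and 74.4 in control and at 1554, 860.3 and 1951 in WNK1-deficient thymocytes, a log2 difference of 3.90 (SE 0.72, adjusted p = 0.00149, limma over all genes tested). *Ccl5* stood at 20.6, 25.7 and 3.14 in control and at 521, 80.0 and 141 in WNK1-deficient thymocytes (3.76, SE 0.75, adjusted p = 0.00258). The genotypes do not overlap for either gene, and lane 4, which held control replicate 3 and all 3 WNK1-deficient libraries, gave the same order (74.4 against 860.3 and above for *Cxcl10*, 3.14 against 80.0 and above for *Ccl5*). Within this lane the control side is replicate 3 alone, a library that stands apart from its group. *Ccl5* was 2.92 when control replicate 3 was left out and 3.00 when WNK1-deficient replicate 1 was, called in both fits. It was not called in the fit of only the groups compared.

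At 24 hr the paths of these chemokines parted. *Cxcl10* in WNK1-deficient thymocytes stood at 59.3, 84.1 and 81.3, within the range of the control libraries at that time (125, 141 and 17.4), and the difference was 0.12 (SE 0.72). *Ccl5* in WNK1-deficient thymocytes was instead at its highest, 768, 917 and 573 against 44.4, 105 and 21.1 in control (3.97, SE 0.75, adjusted p = 0.00142). The genotypes were apart for *Ccl5* within each lane too, with 573 against 44.4 and 105 on lane 4 and 768 and 917 against 21.1 on lane 3. The control side of lane 3 is replicate 3 alone, a library that stands apart from its group. At 48 hr *Ccl5* stood at 108.6, 116.3 and 109.5 without WNK1 and at 24.7, 34 and 72.1 in control, which do not overlap but did not pass the test (1.48, SE 0.75, adjusted p = 0.203). *Cxcl10* at 48 hr overlapped between genotypes (66.2, 117 and 52.1 against 92.4, 54.2 and 491), with WNK1-deficient replicate 3, a library that stands apart, well above the others (0.87, SE 0.72, adjusted p = 0.463).

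Over the 8 groups the mean of *Ccl5* was highest in WNK1-deficient thymocytes at 24 hr (753 ± 173, SD, n = 3), followed by the same genotype at 3, 0 and 48 hr, and then by control at 24, 48, 3 and 0 hr. Neighbours in this order overlapped between 3 and 0 hr without WNK1 and among all 4 control groups. *Cxcl10* was highest without WNK1 at 3 hr (1455 ± 552, n = 3), then at 0 hr (508 ± 186, n = 4) and 48 hr (213 ± 242, n = 3). The next 4 groups lay between 74.9 and 94.6 and overlapped, and control at 0 hr was lowest (10.7 ± 7.23, n = 3), below every WNK1-deficient library of 24 hr, its neighbour in the order. In control thymocytes *Cxcl10* was 8.65 times higher at 3 hr, 8.85 times at 24 hr and 7.32 times at 48 hr than before injection, given without a test because the 0 hr libraries chose it. These rises depend on lane. With lane as a covariate the 3 hr rise in control was 0.144 on the log2 scale, beside 3.21 without it. The 48 hr rise was 2.41 with lane, beside 2.91. The 24 hr rise in control has no stable sign: with lane as a covariate it was -0.565, beside 2.79 without it. Control replicate 3 at 24 hr (17.4) lay within the 0 hr range (3.52 to 18).

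**Figure D2:**
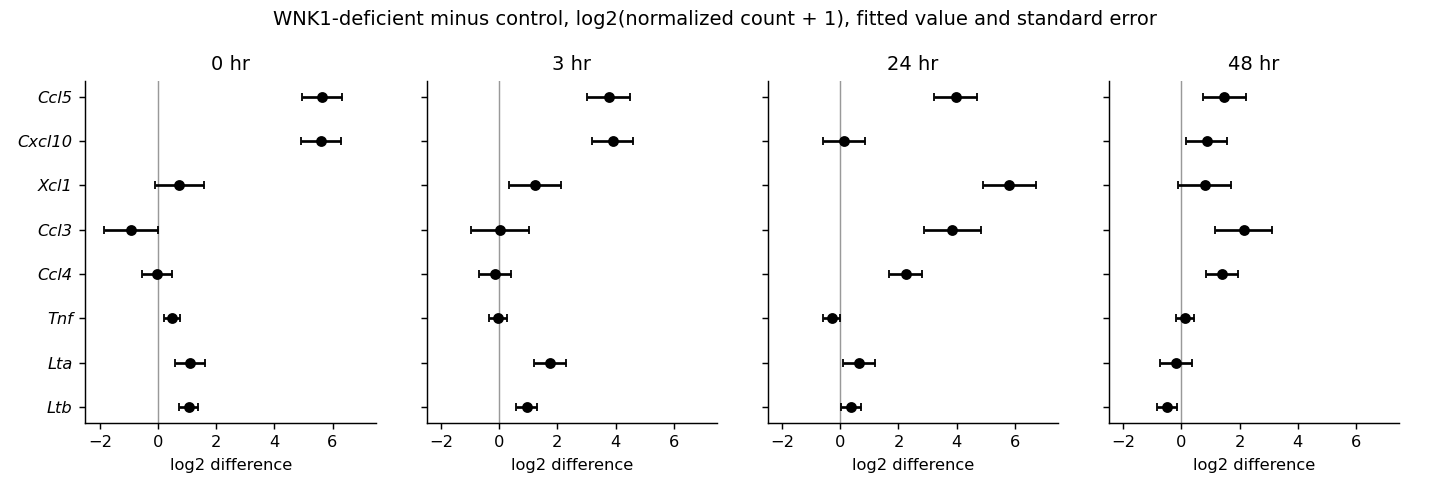
Fitted log2 difference between WNK1-deficient and control thymocytes (points) with its standard error (bars) for the 8 transcripts, 1 panel per time in hours. *Ccl5* and *Cxcl10* lead at 0 and 3 hr (5.64 and 5.60, then 3.76 and 3.90), *Xcl1*, *Ccl5*, *Ccl3* and *Ccl4* at 24 hr (5.81, 3.97, 3.86 and 2.24), and at 48 hr no difference passed the test.

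*Xcl1*, *Ccl3* and *Ccl4* were higher at 3 hr than before injection in both genotypes and were much higher without WNK1 at 24 hr. Sex differs between 0 and 3 hr too, as given above. Before injection *Ccl3* was at 3.52, 0 and 2.12 in control and at 0, 1.54, 0 and 0 in WNK1-deficient thymocytes, 5 and 2 reads in all, too few to compare (ratio of rates 0.252, 95% counting interval 0.0240 to 1.54, which covers counting error only). At 3 hr it stood at 557, 364 and 158 in control and at 327, 219 and 486 without WNK1. Every 3 hr library lay far above every 0 hr library of its genotype, with a rise of 7.05 (SE 0.99, adjusted p = 1.81e-05) in control and 8.02 (SE 0.93, adjusted p = 3.39e-06) in WNK1-deficient thymocytes on the log2 scale. These fitted rises rest on the pseudocount of 1, since the 0 hr levels are near 0. For WNK1-deficient thymocytes the ratio of the read rates was 804 (95% counting interval 222 to 6648).

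*Ccl4* behaved alike from a level that was measurable before injection. At 0 hr it stood at 9.37, 16.9 and 9.52 in control and 15.2, 9.22, 9.86 and 11.6 without WNK1. At 3 hr it stood at 1326, 1313 and 583 in control and 770.1, 1015 and 979 without WNK1. The rise was 6.33 (SE 0.55, adjusted p = 4.41e-08) in control and 6.22 (SE 0.52, adjusted p = 2.94e-08) without WNK1. The genotypes overlapped at both times, and at 3 hr they differed by -0.14 (SE 0.55) for *Ccl4* and 0.04 (SE 0.99) for *Ccl3*, which leaves room for a difference of *Ccl3* of several times in either direction. *Tnf*, whose product is the founding member of the TNF family, also peaked at 3 hr, at 255, 503 and 353 in control and 310.4, 333 and 405 without WNK1. Its rise over 0 hr (76.2, 44.3 and 55.0, and 84.4, 61.4, 87.3 and 90.1) was 2.62 (SE 0.30, adjusted p = 1.84e-06) and 2.11 (SE 0.28, adjusted p = 2.29e-05). *Xcl1* rose from 1.17, 0 and 2.12 to 15.7, 83.1 and 53.4 in control (4.49, SE 0.90, adjusted p = 0.000679) and from 0, 7.68, 1.41 and 3.68 to 73.5, 62.9 and 207 without WNK1 (4.99, SE 0.85, adjusted p = 0.000273). The ratio of the read rates for *Xcl1* in control was 46.3 (95% counting interval 15.5 to 227). With lane as a covariate the rise of *Xcl1* without WNK1 was 8.55 and was not called.

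By 24 hr the control libraries overlapped the level before injection for *Ccl3* (0.822, 3.33 and 3.67) and *Ccl4* (4.93, 16.6 and 18.4), with changes from 0 hr of 0.46 (SE 0.99) and 0.02 (SE 0.55). In WNK1-deficient thymocytes *Ccl3* was at 64.5, 167 and 9.17 and *Ccl4* at 67.5, 115 and 26.2, still above 0 hr (5.25, SE 0.93, adjusted p = 0.000176, and 2.29, SE 0.52, adjusted p = 0.00185) and above every control library of that time. With lane as a covariate the rise of *Ccl4* was 3.01 and was not called (adjusted p = 0.0616). The genotype difference was 3.86 for *Ccl3* (SE 0.99, adjusted p = 0.0138) and 2.24 for *Ccl4* (SE 0.55, adjusted p = 0.0107). Within lane 4 the WNK1-deficient library was above both control libraries (9.17 against 0.822 and 3.33 for *Ccl3*, 26.2 against 4.93 and 16.6 for *Ccl4*), and within lane 3 both WNK1-deficient libraries were above the control one. That control library is replicate 3, which stands apart from its group. Single libraries decide these calls: *Ccl3* was not called without control replicate 1 (3.42), WNK1-deficient replicate 1 (3.63) or replicate 2 (2.96), and *Ccl4* not without control replicate 1 (1.70) or WNK1-deficient replicate 2 (1.77). Neither was called in the fit of only the groups compared. *Ccl3* was 4.98 without WNK1-deficient replicate 3.

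*Xcl1*, chosen at this time, was at 8.22, 21.6 and 7.34 in control and at 1117, 1160.2 and 237 in WNK1-deficient thymocytes at 24 hr, 67.6 times higher in the mean and without overlap. The lowest WNK1-deficient library for *Xcl1*, *Ccl3* and *Ccl4* was replicate 3 each time, the only one of its group on lane 4. The fitted *Xcl1* difference of 5.81 was 5.71 with lane as a covariate and 6.57 without that replicate. At 48 hr WNK1-deficient replicate 2 was the highest of its group for *Xcl1* (244, beside 49.2 and 14.8), *Ccl3* (40.3, beside 2.7 and 1.23) and *Ccl4* (63.4, beside 21.6 and 14.8). Control libraries at 48 hr were at 26 to 45.6, 0 to 3 and 6.52 to 16, so that the genotypes overlapped for all 3 genes. The differences were 0.80 (SE 0.90, adjusted p = 0.61), 2.14 (SE 0.99, adjusted p = 0.164) and 1.39 (SE 0.55, adjusted p = 0.104). *Xcl1* was above its level before injection at 48 hr in both genotypes, by 4.13 in control (SE 0.90, adjusted p = 0.000916) and 4.20 without WNK1 (SE 0.85, adjusted p = 0.000894).

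Transcripts that mark NK and innate lymphoid cells moved with these chemokines at 24 hr. All 12 of the 12 listed markers had a mean of at least 10, and at 24 hr 6 were called higher without WNK1 and none was called lower, beside 12.5% of all genes tested called in either direction. The natural cytotoxicity receptor gene *Ncr1* was at 4.93 to 15.0 in control and 59.0 to 118 in WNK1-deficient libraries, the transcription factor gene *Eomes* at 1.64 to 8.32 and 22.3 to 84.6, and the lectin receptor genes *Klrg1* at 1.66 to 5.51 and 49.7 to 105 and *Klrk1* at 1.84 to 5.75 and 29 to 119. The summed level of the list overlapped between genotypes (23111 to 28333 in control, 25612 to 29558 without WNK1). Among its abundant members *Gzma* went the opposite way to *Nkg7* and *Il2rb*. The receptor chain gene *Il2rb* was at 1378 to 6138 in control and 8882 to 10998 without WNK1. *Gzma*, a granule protease gene, was at 9202 to 18721 in control and 3696 to 8988 without WNK1, apart and lower without passing the test (-1.43, SE 0.50, adjusted p = 0.0638), and *Nkg7* was called higher (1.05, SE 0.32, adjusted p = 0.0365). At 0 hr, when *Ccl5* and *Cxcl10* already stood apart, the sum was 6890 to 10618 and 18102 to 29881, with 1 marker called (*Gzma*, 1.86, SE 0.46, adjusted p = 0.00686) where 22.1% of all genes were. *Klrd1* and *Klrg1* were at 0 in all 3 control libraries there and at most 3.07 and 5.53 in WNK1-deficient ones, and *Ncr1* was at most 3.52 and 7.68. At 3 hr 2 of the 12 were called higher, beside 9.18% of all genes (sum 10649 to 11407 and 13859 to 19224), and at 48 hr 1 was, beside 13.1% (27029 to 32233 and 24883 to 51188). The part of these cells in the chemokine results was not tested.

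In order of the group means, *Xcl1* was highest without WNK1 at 24 hr (838 ± 521, SD, n = 3), above every library of the next group, WNK1-deficient at 3 hr (114 ± 80.0). That group overlapped the next ones, WNK1-deficient at 48 hr (103 ± 124) and control at 3 hr (50.7 ± 33.8), and lay above every control library of 48 hr (33.2 ± 10.8), which overlapped both of them. Control at 24 hr (12.4 ± 8.01) and both 0 hr groups came last. *Ccl3* and *Ccl4* had one order for the 4 highest groups, control at 3 hr, WNK1-deficient at 3, 24 and 48 hr, and neighbours were apart in it between 3 and 24 hr without WNK1, with 344 ± 134 and 80.1 ± 79.9 for *Ccl3* and 921 ± 132 and 69.5 ± 44.2 for *Ccl4*.

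**Figure D3:**
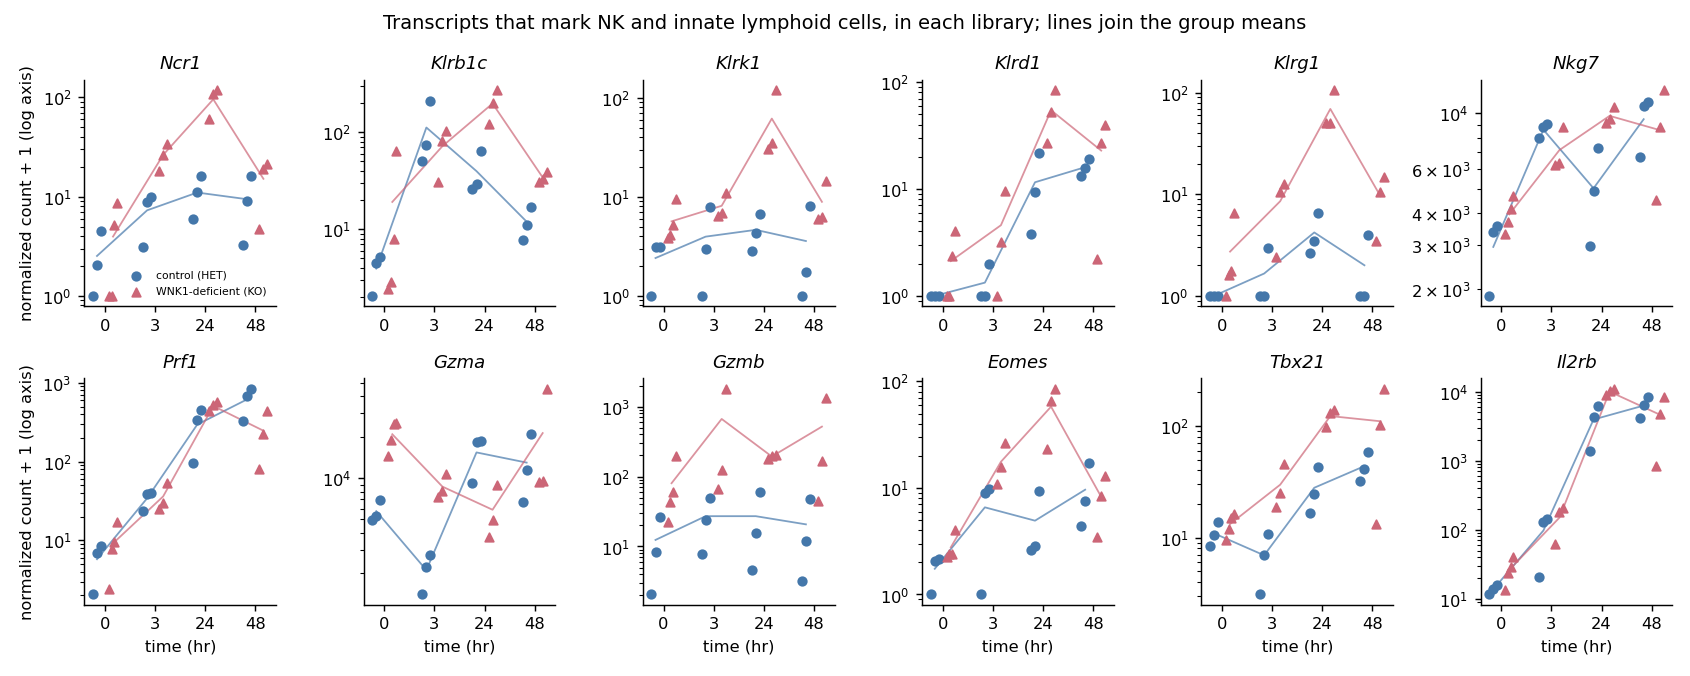
Normalized count + 1 (log axis) of the 12 transcripts listed as NK and innate lymphoid markers in each of the 25 libraries against hours after anti-CD3ε, with circles for control, triangles for WNK1-deficient thymocytes and lines through the group means. *Ncr1*, *Klrg1*, *Klrk1* and *Eomes* lie apart by genotype at 24 hr, and *Gzma* is higher without WNK1 at 0 and 3 hr and lower at 24 hr, where its difference did not pass the test.

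Markers of other cells and of thymocytes were called at some times too. These calls stand beside 22.1%, 9.18%, 12.5% and 13.1% of all genes tested at 0, 3, 24 and 48 hr. Of 11 macrophage and monocyte markers, 2 were lower without WNK1 at 0 hr, 1 was higher at 24 hr and none was called at 3 or 48 hr, and the list summed to 777 to 1271 in control and 1419 to 2006 without WNK1 at 24 hr. Of 9 dendritic cell markers, 4 were tested. *Cd74*, the invariant chain of MHC class II, was higher without WNK1 at 0, 3 and 24 hr (1.10, 1.37 and 2.41, adjusted p = 0.0215, 0.0175 and 0.00017), and the integrin gene *Itgax* and the MHC class II gene *H2-Aa* at 24 hr (2.65 and 1.53, adjusted p = 0.019 and 0.016). The remaining tested gene, *H2-Ab1*, also of MHC class II, was called between genotypes at no time (-0.12, adjusted p = 0.861 at 24 hr). The dendritic list summed to 2095 to 2396 in control and 2591 to 5665 without WNK1 at 0 hr, 1232 to 1903 and 2742 to 3945 at 3 hr, and 848 to 1308 and 2484 to 4028 at 24 hr, apart at these times, and overlapped at 48 hr. At 24 hr the defining transcripts *Clec9a* and *Siglech* were at most 4.99. The B cell list had 1 tested gene, *Cd79b*, which was lower without WNK1 at each time, with *Ms4a1* at 0 in all 6 libraries at 24 hr. Thymocyte markers were lower without WNK1 where called. Of 8 listed, all 8 were tested, and at 0 hr the kinase gene *Lck* (-0.87, adjusted p = 0.00064) and the CD3 chain gene *Cd3e* (-0.88, adjusted p = 0.00407) were lower, with a sum of 449349 to 498973 in control and 286829 to 334704 without WNK1. At 24 hr *Thy1* (-1.40), *Lck* (-0.97), *Dntt* (-2.55) and the pre-TCR chain gene *Ptcra* (-5.62) were lower (adjusted p = 0.000299, 0.000841, 0.00736 and 0.00107), with sums of 110088 to 214027 and 70774 to 87695. At 48 hr *Lck* was (-0.70, adjusted p = 0.011), and at 3 hr none was called and the sums overlapped. *Cd44*, a listed gene whose product the sorted cells lacked, went the other way at 24 hr without passing the test. It was at 698 ± 39.8 without WNK1 and 243 ± 114 in control (1.64, adjusted p = 0.0753). Of 9 epithelial and stromal markers 7 were tested. *Col1a1* was lower without WNK1 at 0 hr (-1.36, adjusted p = 0.0231) and *Epcam* higher at 48 hr (1.62, adjusted p = 8.57e-05). That list summed to 7032 to 13123 in control and 13471 to 13976 without WNK1 at 24 hr. The part of any of these lists in the chemokine results was not tested.

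The lymphotoxin genes followed another course, with *Lta* climbing over 48 hr and *Ltb* high throughout. *Ltb* at 0 hr was at 2784, 2273 and 1748 in control and at 4581, 3955, 5378 and 4753 in WNK1-deficient thymocytes, without overlap, and the difference was 1.06 (SE 0.32, adjusted p = 0.0233). This call was lost without replicate 2 (1.07) or 3 (0.883) of the control, without replicate 3 (0.986) or 4 (1.05) of the WNK1-deficient group, and with lane as a covariate (1.52). At 3 hr the genotypes of *Ltb* again did not overlap (2075, 3301 and 2784 against 6199, 4669 and 4656), but the difference did not pass the test (0.94, SE 0.35, adjusted p = 0.0963). At 24 and 48 hr they overlapped, and the 48 hr difference had turned to -0.51 (SE 0.35, adjusted p = 0.356), with control at 5779, 9178 and 10053 and WNK1-deficient thymocytes at 4823, 7585 and 5055. *Ltb* thus rose from 0 to 48 hr in control (1.86, SE 0.35, adjusted p = 0.000184), whereas in WNK1-deficient thymocytes, which began higher, the change was 0.30 (SE 0.32, adjusted p = 0.534). The difference between these responses was -1.57 and did not pass its own test (adjusted p = 0.112).

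*Lta* was at 16.4, 16.9 and 16.9 in control and at 51.2, 31.5, 36.6 and 31.9 in WNK1-deficient thymocytes at 0 hr, again without overlap and not past the test (1.10, SE 0.52, adjusted p = 0.132). At 3 hr it was at 18.6, 59.3 and 34.6 and at 192, 84.3 and 97.0 (1.75, SE 0.55, adjusted p = 0.0502), a value at the threshold that was called without control replicate 2 (2.15, adjusted p = 0.034). At 24 hr (162, 235 and 38.5 against 194, 118 and 241) and 48 hr (223, 297 and 342 against 329, 414 and 111) the genotypes overlapped. In control *Lta* rose by 2.70 at 24 hr (SE 0.55, adjusted p = 0.00075) and 4.00 at 48 hr (SE 0.55, adjusted p = 6.74e-06), and without WNK1 by 1.62, 2.22 and 2.71 at 3, 24 and 48 hr (adjusted p = 0.026, 0.00229 and 0.000558). With lane as a covariate the rises without WNK1 at 3 and 24 hr were 1.93 and 3.21 and were not called (adjusted p = 0.474 and 0.0657). The 3 hr rise without WNK1 was lost without WNK1-deficient replicate 2 or 4 at 0 hr (1.55 each) and without replicate 1 (1.26) or 3 (1.75) at 3 hr. Control replicate 3 at 24 hr was the lowest of its group for both lymphotoxin genes, and without it the 24 hr rise in control was 3.47 for *Lta* and 0.934 for *Ltb* (adjusted p = 0.017), beside 0.40 for *Ltb* with it.

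For *Tnf* the genotypes overlapped at every time, with differences of 0.48 (SE 0.28), -0.04 (SE 0.30), -0.30 (SE 0.30) and 0.12 (SE 0.30) at 0, 3, 24 and 48 hr. After its 3 hr peak *Tnf* was at 145, 148 and 84.4 in control and 84.6, 93.2 and 122 without WNK1 at 24 hr, below every 3 hr library of the same genotype. At 48 hr it was at 170.4, 203 and 141 and at 260.3, 201 and 119, above 0 hr in both genotypes (1.56, SE 0.30, adjusted p = 0.000313, and 1.2, SE 0.28, adjusted p = 0.00371). At 24 hr it was above 0 hr in control (1.08, SE 0.30, adjusted p = 0.00922), a call lost without control replicate 2 at 0 hr (0.902) or replicate 1 at 24 hr (0.958), and changed by 0.30 (SE 0.28, adjusted p = 0.464) without WNK1. Ordered by group mean, *Tnf* was highest in the 3 hr groups (370 ± 125 in control, 349 ± 49.4 without WNK1), then at 48, 24 and 0 hr, and neighbours in this order overlapped except between 3 and 48 hr without WNK1. The order of *Lta* followed time, with WNK1-deficient thymocytes at 0 hr just above control at 3 hr, from 287 ± 60.2 in control at 48 hr to 16.7 ± 0.291 in control at 0 hr, with neighbours apart between WNK1-deficient thymocytes at 3 and 0 hr and between control at 3 and 0 hr. For *Ltb* all neighbours overlapped, from 8337 ± 2258 in control at 48 hr to 2269 ± 518 in control at 0 hr.

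**Figure D4:**
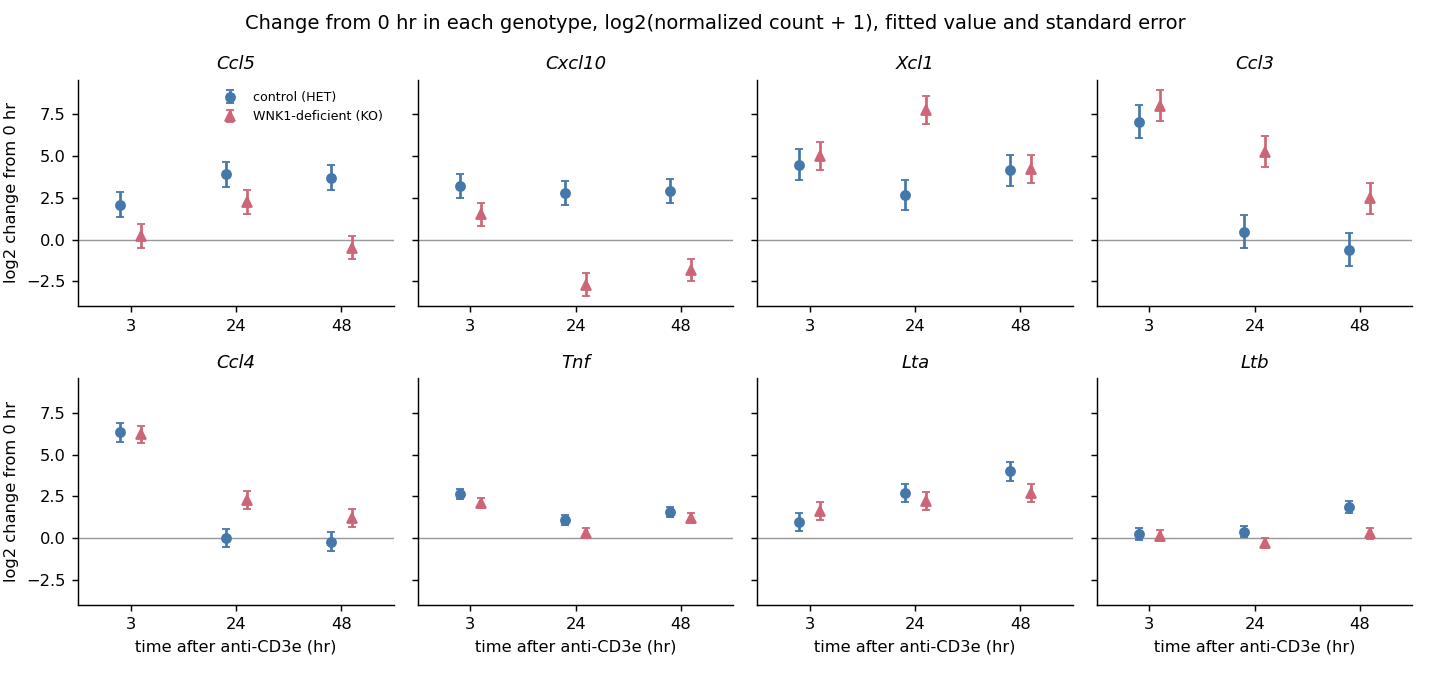
Fitted log2 change from 0 hr (points) with its standard error (bars) at 3, 24 and 48 hr in control (circles) and WNK1-deficient thymocytes (triangles) for the 8 transcripts. *Ccl3*, *Ccl4* and *Tnf* rise together in both genotypes at 3 hr, *Xcl1* reaches 7.75 without WNK1 at 24 hr beside 2.67 in control, and *Cxcl10* lies below its 0 hr level without WNK1 at 24 hr (-2.69) and above it in control (2.79). The difference between the *Xcl1* responses was not called, and the control *Cxcl10* value was -0.565 with lane as a covariate.

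Counted over the 8 genes, 3 were called between genotypes at 0 hr, where 22.1% of the 14141 tested genes were called, 2 at 3 hr (9.18% of all genes), 4 at 24 hr (12.5%) and none at 48 hr (13.1%). Every call was higher without WNK1, and nothing is read from the counts at 0 and 24 hr, which chose members. At 48 hr 2 of the 8 had an unadjusted p under 0.05, DESeq2 called 2 and edgeR none. The median difference of the 8 genes was 0.90, 1.09, 1.44 and 0.83 at the 4 times, beside -0.0193 to 0.00313 over all genes tested. The medians at 0 and 24 hr hold the values that chose members, and nothing is read from those 2. Against 0 hr, control thymocytes had 6 of 8 called at 3 hr (37.0% of all genes), 5 at 24 hr (33.9%) and 6 at 48 hr (42.4%), all higher. WNK1-deficient thymocytes had 5 at 3 hr (24.7%), 6 at 24 hr (30.4%) and 4 at 48 hr (26.8%), all higher except *Cxcl10* at 24 and 48 hr. Nothing is read from these counts either, since they hold *Ccl5* and *Cxcl10*, chosen from the 0 hr libraries, and *Xcl1*, chosen at 24 hr. Without WNK1 *Ccl3* and *Ccl4* at 48 hr were not called, and were called once replicate 3 of 48 hr was left out (3.29 and 1.64). With lane as a covariate *Ccl5* and *Cxcl10* in control at 3 hr were no longer called. The comparisons against 0 hr share their 0 hr libraries.

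The responses of the genotypes differed for few of the 8 genes when the difference itself was tested. At 3 hr none was called (0.0707% of all genes), none had an unadjusted p under 0.05, and neither edgeR nor DESeq2 called any. At 24 hr 1 was called (0.658%), *Cxcl10* with -5.49, and at 48 hr 2 were (1.36%), *Cxcl10* with -4.74 and *Ccl5* with -4.16, all of them values that contain the 0 hr differences which chose the genes. None of these was called with lane as a covariate (-4.45, -4.42 and -6.29, adjusted p = 0.296, 0.342 and 0.299), and with the replicate number as a block neither 48 hr value was. *Ccl3* and *Ccl4* differed in response at 24 hr by 4.79 (adjusted p = 0.102) and 2.27 (adjusted p = 0.172) and did not pass, although *Ccl3* was called without WNK1-deficient replicate 3 (5.91, adjusted p = 0.0406). For *Xcl1*, chosen at 24 hr, the responses differed by 5.08 at that time, which was not called. It was called without control replicate 2 or WNK1-deficient replicate 3 of 24 hr. The *Cxcl10* value at 48 hr was not called without control replicate 1 at 0 hr (-4.17). The *Ccl5* value at 48 hr was lost without any 1 of 11 libraries, with values of -4.37 to -3.34, and kept without control replicate 2 at 0 hr (-4.78) or control replicate 1 at 48 hr.

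Tested genes whose log2 level over the 25 libraries was most like that of a member were described by Pearson's r, with points that share depth, scaling and the groups themselves. *Cxcl10* was closest to the NF-κB inhibitor gene *Nfkbia* (r = 0.88), *Rnf39* (0.83) and the NF-κB subunit gene *Relb* (0.82). *Tnf* was closest to *Nfkbid* (0.94), which encodes a nuclear protein of the IκB family, and *Lta* to *Gimap6* (0.96). *Ccl3* and *Ccl4* were closest to each other (0.95), with the AP-1 gene *Fosb* next for *Ccl4* (0.94). *Xcl1* was closest to *Lass2* (0.90) and *Il2rg* (0.90), the common γ chain of cytokine receptors, *Ccl5* to *Serpina3f* (0.90) and *Ltb* to *Rasgrp2* (0.86). Between members the highest r after that of *Ccl3* with *Ccl4* were *Lta* with *Ltb* (0.74), which lie in 1 cluster, and *Ccl4* with *Tnf* (0.73), which do not, and *Ccl5* with *Cxcl10* reached 0.62.

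Among receptor genes for the TNF-family ligands, *Ltbr* and *Tnfrsf14* were called lower without WNK1, whereas the TNF receptor genes *Tnfrsf1a* and *Tnfrsf1b* passed the test between genotypes at no time (adjusted p from 0.0859 to 0.909 and from 0.0948 to 0.848). The gene of the lymphotoxin β receptor, *Ltbr*, was lower without WNK1 at 0, 3 and 24 hr (240 in control and 70.7 without WNK1 at 0 hr, log2 -1.82, adjusted p = 0.00183). *Tnfrsf14*, which binds lymphotoxin α and LIGHT, was lower at 0 and 48 hr (-0.94 and -1.14, adjusted p = 0.00688 and 0.00504).

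Other chemokine genes were mostly too low to test. Of 33 listed 6 were tested, and 1 was called, higher without WNK1, at 0, 3 and 24 hr: *Cxcl9*, a second ligand of CXCR3, with 44.6 ± 19.6 against 8.37 ± 2.11 at 0 hr (2.20, adjusted p = 0.00168). Of 15 other TNF-family ligands 9 were tested, and 3, 1, 5 and 2 were higher without WNK1 at 0, 3, 24 and 48 hr and none lower. They were led by *Tnfsf4* (OX40 ligand, 60.1 ± 19.4 against 4.30 ± 1.70 at 0 hr, 3.53, adjusted p = 1.13e-05) and *Tnfsf8* (CD30 ligand, 232 ± 77.5 against 31 ± 9.15 at 0 hr, 2.86, adjusted p = 0.000528). *Tnfsf11*, which encodes RANKL, a signal to medullary epithelium, was higher at 0, 24 and 48 hr (1530 ± 547 against 523 ± 73.7 at 48 hr, 1.48, adjusted p = 0.000338), and *Tnfsf14*, LIGHT, at 24 hr (1.46, adjusted p = 0.0088). The shares called among all genes, given above, were 22.1% or less at each time. These lists were drawn up with earlier results of these libraries known. The genes named from them are those called with the largest genotype differences, so that their p-values are those of picked genes.

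Of 11 listed target and feedback genes of NF-κB, the transcription factor that acts at κB sites, 6 were higher and 2 lower without WNK1 at 0 hr, 4 higher at 3 hr, 5 higher at 24 hr and none called at 48 hr. Among all genes tested 22.1%, 9.18%, 12.5% and 13.1% were called at 0, 3, 24 and 48 hr, in either direction. The median of the list at 0 hr was 1.05 beside -0.0022 over all genes tested. *Bcl3* (447 ± 58.4 against 13.7 ± 4.89), *Relb* (1123 ± 97.4 against 151 ± 31.3) and *Nfkbia* (5118 ± 228 against 851 ± 158) led at 0 hr, with log2 differences of 4.97, 2.90 and 2.60 (adjusted p = 1.61e-07, 6.38e-08 and 5.43e-08), and the adhesion gene *Icam1* followed (1.2, adjusted p = 4.92e-05). Of 15 genes induced by interferon, 1 was higher at 0 hr (*Ifit2*, 1.21, adjusted p = 0.0186), 1 at 3 hr (*Irf1*, 0.70, adjusted p = 0.00465) and 1 lower at 24 hr (*Isg15*, -1.81, adjusted p = 0.0265), with none called at 48 hr and a median at 0 hr of 0.79. Of 16 other T cell cytokines 5 were tested, and 2, 2, 2 and 1 were higher without WNK1 at the 4 times and none lower. *Ifng*, whose product induces *Cxcl10* and *Cxcl9*, was at 0 in all 3 control libraries and at 20.9 ± 6.94 (SD, n = 4) without WNK1 at 0 hr, and at 54.1 and 267 at 3 hr (2.38, adjusted p = 0.0019). *Lif* was higher at 0, 24 and 48 hr (2.67 at 0 hr, adjusted p = 0.000713) and *Osm* at 3 hr (1.00, adjusted p = 0.0471).

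**Figure D5:**
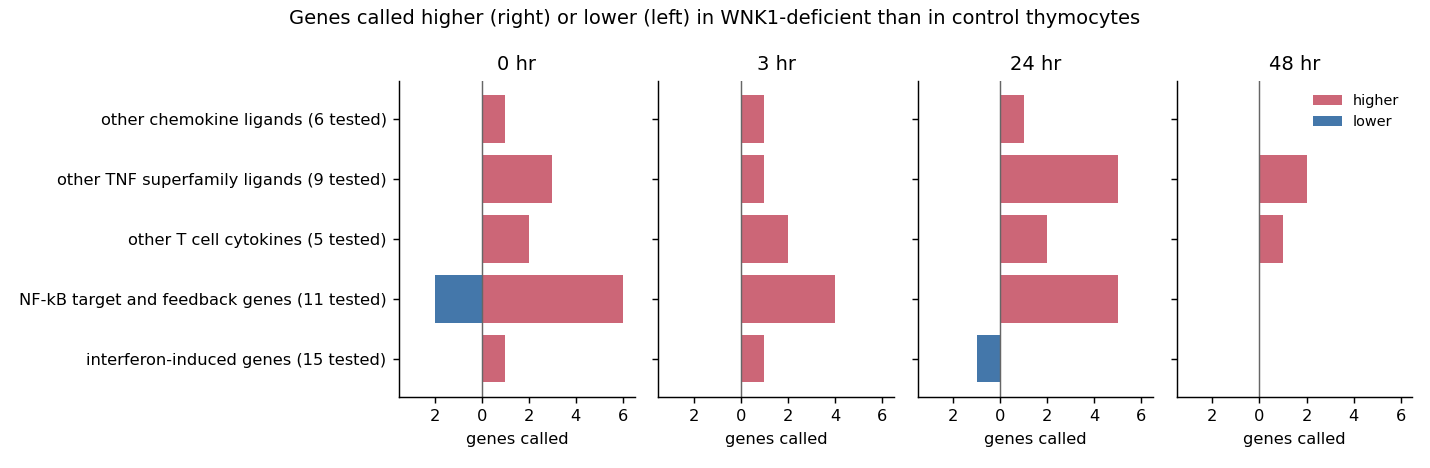
Number of genes called higher (bars to the right) or lower (bars to the left) in WNK1-deficient than in control thymocytes at each time in hours, for 5 lists around the 8 ligands, with the number of genes tested in each list. The NF-κB list has 6 higher and 2 lower at 0 hr and none at 48 hr, the other TNF-family ligands 5 higher at 24 hr, and the interferon list at most 1 call at any time. Among all genes tested 22.1%, 9.18%, 12.5% and 13.1% were called at 0, 3, 24 and 48 hr.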

How the data were processed

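Polyadenylated RNA of sorted thymocytes was made into stranded libraries (KAPA mRNA HyperPrep) and sequenced as 75-base single reads. The submitters' processing notes and the methods name Trimmomatic 0.36, STAR 2.5.2a, RSEM 1.2.31 (GRCm38, Ensembl release 86) and DESeq2 1.18.1 in R 3.4.1. The deposited signal values are normalized counts, which the authors made by scaling RSEM counts with DESeq2 size factors, and each library divided by its smallest step gave whole reads within 0.001, in 2 libraries with a step so near 1 that the scale is not independently known. Symbols came from RefSeq (GRCm38.p6), which named 32771 of the 48795 Ensembl identifiers.

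Those 14141 genes whose mean reached 10 were fitted with limma 3.58.1 (R 4.3.3) on log2(normalized count + 1), with 1 mean per genotype and time, empirical Bayes moderation with a trend, and Benjamini-Hochberg adjustment over all genes tested within each of 13 comparisons, at 0.05. Log2 differences on this scale understate the change of low genes. The spread is between mice of 1 experiment. "Apart" or "without overlap" means that every library of one group lies on one side of every library of the other. The members and all lists were chosen with earlier results of these data known. Named are all 8 members, of each list at most 4 genes called with the largest genotype difference, the 3 genes most like each member (of which some are printed), and marker genes, and 1 listed gene is not reported here. Alternatives were pseudocounts of 0.5 and 5, dropping the filter or raising it to a mean of 100, a common total or upper quartile, no trend, only the groups compared, lane as a covariate, the replicate number as a block, edgeR 4.0.16 and DESeq2 1.42.0 on the recovered reads, each replicate left out in turn, and 3 libraries that stand apart left out together. The scripts were tested on simulated data. Figures were drawn with matplotlib 3.10.9.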

Additional observations from a re-analysis of the deposited data

Results flagged for a closer look

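Results were marked for another look where 1 library of a group of 4 lay far from the rest or where the response to injection differed between genotypes. *Ccl3* in WNK1-deficient thymocytes at 0 hr had 1 library at 1.54 and 3 at 0, so that the gap took the whole range of the group (a share of 1), from 2 reads in all. About 1 in 20 groups would be marked in this way by chance, a rate that does not hold here. Any group with 3 libraries at 0 and 1 above it is marked. The response of *Cxcl10* differed between genotypes at 24 hr (-5.49 on the log2 scale) and at 48 hr (-4.74), and that of *Ccl5* at 48 hr (-4.16), and none of these passed the test with lane as a covariate. In control thymocytes both were near 0 before injection and higher in the mean after it, whereas without WNK1 they were high before injection. Control libraries overlapped those of 0 hr for *Ccl5* at 3 hr and for *Cxcl10* at 24 hr. With lane as a covariate the change of *Cxcl10* in control was 0.144 at 3 hr and -0.565 at 24 hr. Control replicate 3 at 24 hr had 17.4 normalized counts of *Cxcl10* beside 125 and 141, and without it the 24 hr value was -6.44. WNK1-deficient replicate 3 at 48 hr had 491 beside 92.4 and 54.2, and without it the 48 hr value was -5.66.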

How the results depend on the processing

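Of the values recomputed under settings that keep all replicates or leave out 3 libraries together, 1237 kept direction and side of the threshold, 39 lost a call, 28 gained one, 34 moved and 1 reversed: *Cxcl10* at 24 hr against 0 hr in control, -0.565 with lane as a covariate. Among counts of the 8 members called between genotypes, the fit of only the groups compared gave 1 at 3 hr and 2 at 24 hr, DESeq2 gave 4 at 3 hr and 2 at 48 hr, and leaving out the 3 libraries gave 1 at 48 hr. With lane as a covariate the counts were 3 in control at 24 hr, 3 without WNK1 at 3 hr, 3 without WNK1 at 24 hr, and 0 for the difference in response at 24 and at 48 hr. The fit of only the groups compared gave 3 in control at 24 hr. For the difference in response at 24 hr a pseudocount of 5, only the groups compared, DESeq2 and the omission of 3 libraries gave 2 each, and at 48 hr a pseudocount of 5, no filter, no trend and edgeR gave 1 each. Leaving out 1 replicate at a time gave, between genotypes at 0, 3, 24 and 48 hr, ranges of 2 to 3, 2 to 3, 2 to 4 and 0 to 0 members. Against 0 hr it gave 5 to 6, 3 to 6 and 6 to 6 in control, 4 to 5, 5 to 6 and 3 to 6 without WNK1 (3, 24 and 48 hr), and for the difference in response 0 to 0, 1 to 3 and 0 to 2. Same-numbered libraries did not deviate together (84 pairs, r of -0.273 to 0.378, 15 over 0.1), so that the replicate numbers do not pair the mice. With the replicate number as a block the difference in response at 48 hr gave 0 members. A common upper quartile moved the median of all genes by at most -0.106 (48 hr against 0 hr in control) and a common total by less. The causes of these shifts were not tested, and *Ccl3* at 0 hr in both genotypes and at 24 and 48 hr in control, and *Xcl1* and *Ccl5* at 0 hr in control, rest on fewer than 10 reads a group.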
